A study of Mus musculus with 4 samples.

Results

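The 93 nuclear-encoded genes of oxidative phosphorylation were examined in single cortical nuclei of Gclc-KO mice, in which Gclc, the gene of the catalytic subunit for the first step of glutathione synthesis, is removed by CaMKII-Cre. All symbols of the deposited gene list that begin with Nduf, Uqcr, Cox4 to Cox8 or Atp5, or that are Sdha to Sdhd, were taken, and pseudogene names ending in -ps were left out, which gave 93 of 32285 genes. By role these were 7 core subunits, 29 accessory subunits and 8 assembly factors of complex I, 4 subunits of complex II, 8 of complex III, 20 of complex IV and 17 of the ATP synthase. Nuclei came from cortical regions rich in rod-shaped microglia of mice aged 3 months (libraries 3M-1 and 3M-2) and 6 months (6M-1 and 6M-2), 1 mouse a library. All 4 mice carried the same genotype (floxed Gclc on a C57BL/6NTac background with CaMKII-Cre, a driver of forebrain excitatory neurons), they received no treatment, and no wild-type library was analysed here. Every comparison therefore sets tissue of knockout mice against tissue of knockout mice, by age or by cell type. Between types, excitatory neurons, which the driver targets, were set against other types. The deletion and the cell type cannot be told apart in that comparison.

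Oxidative phosphorylation is the process by which the inner mitochondrial membrane turns the energy of electrons into ATP. Complexes I and II pass electrons from NADH and succinate to ubiquinone, complex III hands them to cytochrome c, complex IV passes them to oxygen, and the ATP synthase uses the proton gradient that the pumps build up. A small set of core subunits is made inside the mitochondrion, and most of the genes studied here encode subunits supplied from the nucleus. Neurons are known for a high respiratory demand, above all the fast-spiking interneurons that express parvalbumin.

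The 93 genes lie on 19 chromosomes of GRCm38, with 3 on X (Ndufa1, Ndufb11 and Cox7b). They are short, with a median span of 7.28 kb against 17.3 kb over 21702 coding genes, and a range from 0.953 to 155.9 kb. The 300 bases around the annotated start (250 before and 50 after) were read from RefSeq (GRCm38.p6) for the 75 genes with an entry. The letters GCGCATGCG, a core of the site of the nuclear respiratory factor NRF1, stood on either strand in 10 of the 75 (13.3%) against 1.95% of 27025 genes. The ETS core CCGGAAG stood in 19 (25.3% against 9.93%), and the YY1 core AAGATGGCG in 8 (10.7% against 1.64%). Such a match is a description of the letters and not evidence of binding. The 250 bases before the start are printed for 3 genes with an NRF1 core that were later found higher in parvalbumin interneurons, with NRF1 and ETS cores in capitals. Cox6a1, a complex IV subunit, is shown from the reverse strand of chr5:115348959-115349208, with the NRF1 core read on both strands 162 and 161 bases before the start and an ETS core 16 bases before it. Atp5l, a subunit of the ATP synthase, is shown from the reverse strand of chr9:44920743-44920992, with the cores 241 and 212 bases before the start. Ndufaf4, a complex I assembly factor, is shown from the forward strand of chr4:24897833-24898082, with the NRF1 core on both strands 113 and 112 bases before the start.
Cox6a1: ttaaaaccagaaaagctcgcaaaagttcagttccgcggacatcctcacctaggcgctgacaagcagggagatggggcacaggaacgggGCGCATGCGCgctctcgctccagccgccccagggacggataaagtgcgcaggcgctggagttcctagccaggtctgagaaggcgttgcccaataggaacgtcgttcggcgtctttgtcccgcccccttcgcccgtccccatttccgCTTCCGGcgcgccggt
Atp5l: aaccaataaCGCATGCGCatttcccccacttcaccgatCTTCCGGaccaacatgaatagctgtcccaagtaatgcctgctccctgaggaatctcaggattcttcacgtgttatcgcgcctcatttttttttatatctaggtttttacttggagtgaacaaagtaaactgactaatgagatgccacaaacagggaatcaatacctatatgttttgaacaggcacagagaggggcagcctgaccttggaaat
Ndufaf4: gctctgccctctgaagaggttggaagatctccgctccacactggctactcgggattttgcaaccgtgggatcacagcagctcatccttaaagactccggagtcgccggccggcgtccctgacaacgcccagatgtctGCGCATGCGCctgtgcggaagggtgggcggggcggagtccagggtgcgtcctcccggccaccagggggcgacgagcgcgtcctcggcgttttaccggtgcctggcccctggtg

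Nuclei were assigned to cell types by marker genes that are not among the 93. Of 30784 deposited nuclei, 30515 passed the limits of the study (at most 7000 detected genes and 1% mitochondrial UMIs), with 59262228 to 65894316 UMIs in a library, and 19460 of them (63.8%) met a gate. These held 10181 excitatory and 2571 inhibitory neurons, 3983 oligodendrocytes, 527 oligodendrocyte precursor cells (OPCs), 159 astrocytes, 1916 microglia, and 36 mural cells. Marker lists of granule-type and striatal-type spiny neurons gated 39 and 32 further nuclei. Of these, 37 and 20 came from 3M-2 and 1 and 6 from 3M-1. Whether the tissue taken differed between libraries was not tested. Within the inhibitory gate, 289 nuclei were gated as Pvalb, 675 as Sst, 191 as Vip and 257 as Lamp5 interneurons. No limit was set there on markers of the other classes. The Sst class had Sst at 183 CPM against 6.55 in the Pvalb class. It also held Adarb2 at 1108 CPM against 11.7 in Pvalb, and Vip at 37.8 against 2.76 in Pvalb and 1180 in Vip interneurons. Several defining markers set the gates apart. Slc17a7 stood at 281 CPM in the excitatory and 8.85 in the inhibitory gate. Gad1 had 304 in the inhibitory and 1.79 in the excitatory gate, and Csf1r 837 in the microglial gate against 2.30 in oligodendrocytes. Pvalb itself had 126 CPM in the Pvalb class and 6.47 or less in the other 3 classes. Not every listed marker did so. Nxph1 of the inhibitory list had 1689 CPM in the inhibitory gate and 2293 in OPCs. Pthlh of the Pvalb list had 9.66 CPM in Pvalb and 16.1 in Vip interneurons. Glial gates still held neuronal RNA, with Slc17a7 at 38.9 CPM in microglia. Summed over 8 abundant cytoplasmic neuronal mRNAs, excitatory neurons had 5840 to 6716 CPM (UMIs scaled to 1000000) and microglia 1039 to 1613, oligodendrocytes 714 to 1225 and astrocytes 546 to 1229. The part of this RNA in the results below was not tested. The libraries shared 93 cell barcodes. Gclc itself stood at 33.7 to 41.5 CPM in excitatory neurons, and without wild-type nuclei this does not check the deletion.

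Among the 6 types with enough nuclei for a test, the 93 genes together took the smallest share of UMIs in excitatory neurons and the largest in astrocytes. The few mural nuclei, left out here, had 4050 to 5915 CPM. In CPM of the same library and cell type, their sum was 1855, 2335, 2124 and 2066 in excitatory neurons, given here and below in the order 3M-1, 3M-2, then 6M-1, 6M-2 (mean 2095 ± 197, SD, n = 4). In inhibitory neurons it was 2691, 3454, 3058 and 2890 (mean 3023 ± 324). All 4 inhibitory values lay above all 4 excitatory ones, and within a library the inhibitory share was 1.40 to 1.48 times the excitatory share. Oligodendrocytes had 2332, 3289, 3200 and 3461 CPM, OPCs 2339, 3079, 2917 and 2582, and microglia 3079, 3540, 3538 and 3668. Astrocytes, with only 159 nuclei, had 3284, 4890, 4189 and 3947 CPM (mean 4078 ± 663). Their nuclei also held the most mitochondrially encoded RNA, at 111, 243, 160 and 108 CPM. The other types tested had 31.6 (oligodendrocytes) to 65.4 CPM (microglia) of it. The part of this RNA in the astrocyte share was not tested. From excitatory neurons upwards the means ran through OPCs (2729), inhibitory neurons, oligodendrocytes (3070) and microglia (3457) to astrocytes. Each neighbour from OPCs upwards overlapped the next in its range.

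A share is not an amount per nucleus. Counted per nucleus, the 93 genes gave 23.2, 21.5, 23.9 and 24.6 UMIs in excitatory neurons and 23.7, 22.5, 25.4 and 24.0 in inhibitory neurons, so these ranges overlapped. Oligodendrocytes gave 6.55, 6.03, 6.90 and 8.38 UMIs per nucleus and microglia 6.90, 5.76, 6.73 and 7.81, all below OPCs (8.90 to 10.5) and astrocytes (12.2 to 14.6). The median depth differed in the same sense, from 8170 to 11527 UMIs per excitatory nucleus against 1422 to 2198 per microglial nucleus. The largest parts of the sum varied little among the 6 types. The ATP synthase gave 22.6% to 23.6% of it, complex I accessory subunits 24.1% to 25.7% and complex IV 18.5% to 21.4%. Smaller parts varied more for their size. Complex I assembly factors gave 7.99% in astrocytes to 11.3% in excitatory neurons, and core subunits 7.72% in microglia to 9.80% in OPCs.

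**Figure D1:**
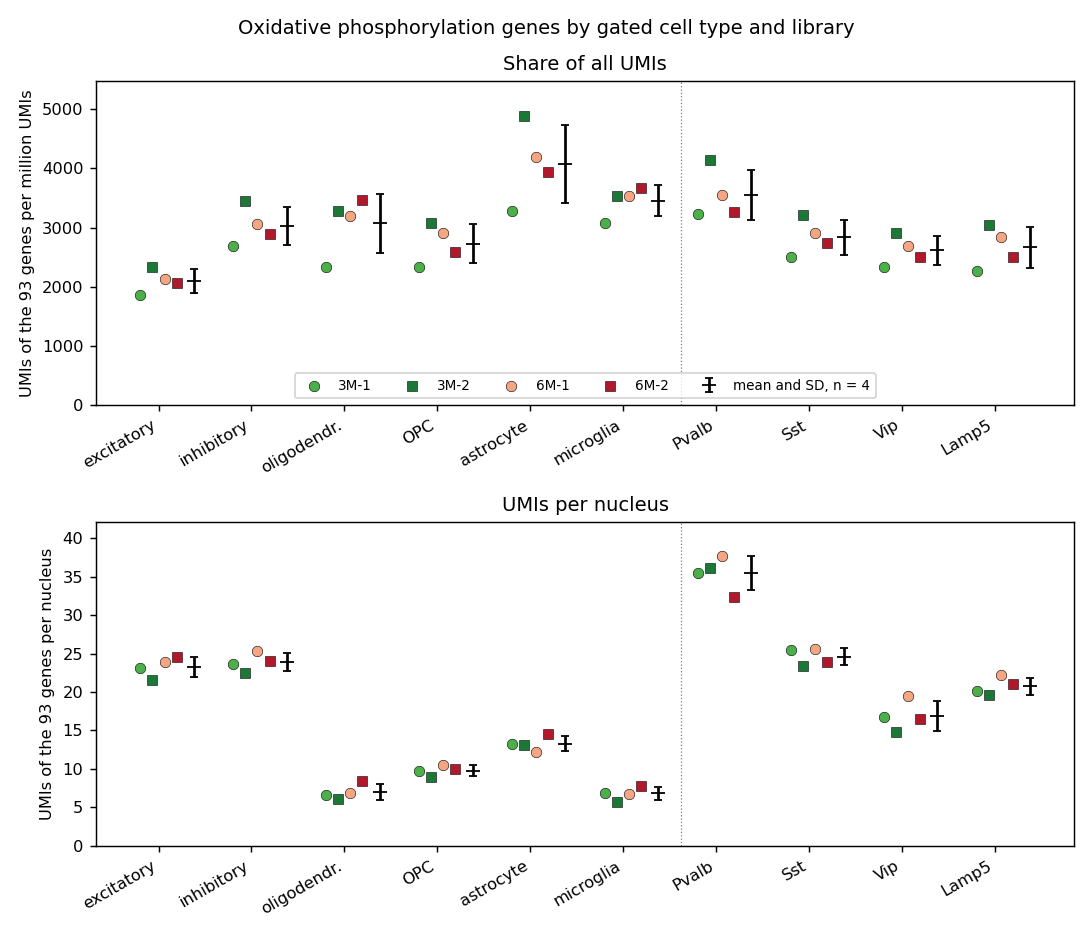
Sum of the 93 genes in each gated cell type (left of the dotted line) and interneuron class (right), as CPM (upper panel) and as UMIs per nucleus (lower panel), with 1 point a library and the mean and SD of 4 libraries beside them. Excitatory neurons had the smallest share of the 6 types, Pvalb interneurons had the most UMIs per nucleus, and 3M-1 lay lowest in share in every group.

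The 3M libraries differed from each other in these genes. Among the genes with at least 10 UMIs in each library, 65 of 86 had their lowest CPM in 3M-1 in excitatory neurons (75.6%, against 39.0% of all 16926 genes so counted). In oligodendrocytes it was 70 of 85 (82.4% against 40.2%), and in inhibitory neurons 56 of 86 (65.1% against 33.7%). The highest CPM stood in 3M-2 for 59 of 86 genes in excitatory neurons (68.6%, against 32.1% of all genes) and 62 of 86 in inhibitory neurons (72.1% against 29.6%). This end did not stand out in oligodendrocytes, with 21 of 85 (24.7% against 27.1%), and in microglia it was 24 of 68 (35.3% against 29.6%). The libraries 3M-1 and 3M-2 were also the deepest and the shallowest in every one of the 6 types by median UMIs per nucleus, and the part of depth in this order was not tested. An example is Atp5g3, which encodes the membrane ring of the ATP synthase, with 9.41, 25.1, 22.4 and 18.1 CPM in excitatory neurons. It had 14.6, 46.4, 36.5 and 26.7 CPM in inhibitory neurons and 17.4, 38.8, 41.3 and 40.9 in oligodendrocytes.

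The design asks first whether these genes differed between 3 and 6 months, and none of them passed the test in any of the 6 types. For each type the UMIs were summed per library and 6M was compared with 3M by edgeR's quasi-likelihood test, with p-values adjusted over all genes tested. Few genes of any kind were called. The counts were 1 of 18236 genes in excitatory neurons (0.00548%), 0 of 14381 in inhibitory neurons (0%), 2 of 11973 in oligodendrocytes (0.0167%) and 2 of 7532 in OPCs (0.0266%). They were 0 of 2650 in astrocytes (0%) and 13 of 11020 in microglia (0.118%). At an unadjusted p under 0.05, 1030 genes stood out in excitatory neurons, 577 in inhibitory neurons, 815 in oligodendrocytes, 393 in OPCs, 124 in astrocytes and 997 in microglia. Among the 87, 87, 86, 53, 16 and 82 oxidative phosphorylation genes tested in these types, 0, 0, 4, 3, 2 and 1 did so. DESeq2 likewise called 0 of them in every type, where it called 30, 3, 33, 0, 0 and 9 of all genes.

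The age differences had medians near 0 in neurons and above 0 in oligodendrocytes, the latter only with 3M-1 included. The median log2 difference (6M minus 3M) was 0.00 in excitatory and 0.01 in inhibitory neurons, with 44 and 48 of 87 genes above 0. In oligodendrocytes it was 0.23, with 70 of 86 genes above 0, while the median over all genes tested was 0.01. Without 3M-1 the oligodendrocyte median was 0.02, with 45 of 86 genes above 0. In microglia it was 0.14 with 58 of 82 genes above 0 (0.04 and 45 of 84 without 3M-1), in OPCs 0.06 with 30 of 53, and in astrocytes −0.08 with 7 of 16. The complex I accessory subunits gave a median of 0.29 in oligodendrocytes (26 of 29 above 0), complex IV 0.27 (11 of 13) and the ATP synthase 0.23 (15 of 17). Core subunits of complex I gave 0.06 (5 of 7) and complex II −0.02 (2 of 4).

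By single genes, the smallest unadjusted p values in oligodendrocytes belonged to Cox5a, a complex IV subunit, with a log2 difference of 0.55 (SE 0.20, adjusted p = 0.614), and to Ndufa13 (0.57, adjusted p = 0.642), Ndufc2 (0.90) and Ndufb8 (0.77) of complex I. Cox5a had 36.2, 43.0, 57.8 and 64.3 CPM there, so both 6M libraries lay above both 3M libraries. Such a gap was seen for 29 of 85 genes in oligodendrocytes, against 23.8% of all genes with 10 UMIs in each library, and the opposite gap for 1, against 12.9%. In microglia both 6M libraries lay above both 3M libraries for 19 of 68 genes (17.3% of all genes) and below them for 5 (20.1%). In microglia the smallest p belonged to Ndufa5 of complex I, at 1.40 (SE 0.44, adjusted p = 0.309). Over the 25 preset genes tested in excitatory neurons, log2 differences ran from −0.22 (Cox8a) to 0.24 (Atp5g3), with a median SE of 0.197. In inhibitory neurons they ran from −0.28 (Cox8a) to 0.26 (Ndufaf1), in oligodendrocytes from −0.44 (Cox6b2) to 0.59 (Atp5k) and in microglia from −0.48 (Atp5k) to 0.62 (Atp5g3).

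The age result depended on single 3M libraries. Without 3M-2, 5 of the genes were called higher at 6M in excitatory neurons (4.85% of all genes tested were called higher there), 9 in inhibitory neurons (4.2%) and 10 in oligodendrocytes (3.45%). Atp5g3 was called in all 3, with log2 differences of 1.03, 1.11 and 1.08. Ndufa13 of complex I was called in both neuron types (0.69 and 0.97), and Ndufa4, a complex IV subunit, in inhibitory neurons and oligodendrocytes (0.78 and 1.06). Without 3M-1, by contrast, the medians were −0.17 in excitatory and −0.21 in inhibitory neurons, with 18 and 12 of 87 genes above 0. In these fits the lone 3M library was assumed to vary like the 6M pair. The direction of the neuronal medians thus followed whichever 3-month library was kept.

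**Figure D2:**
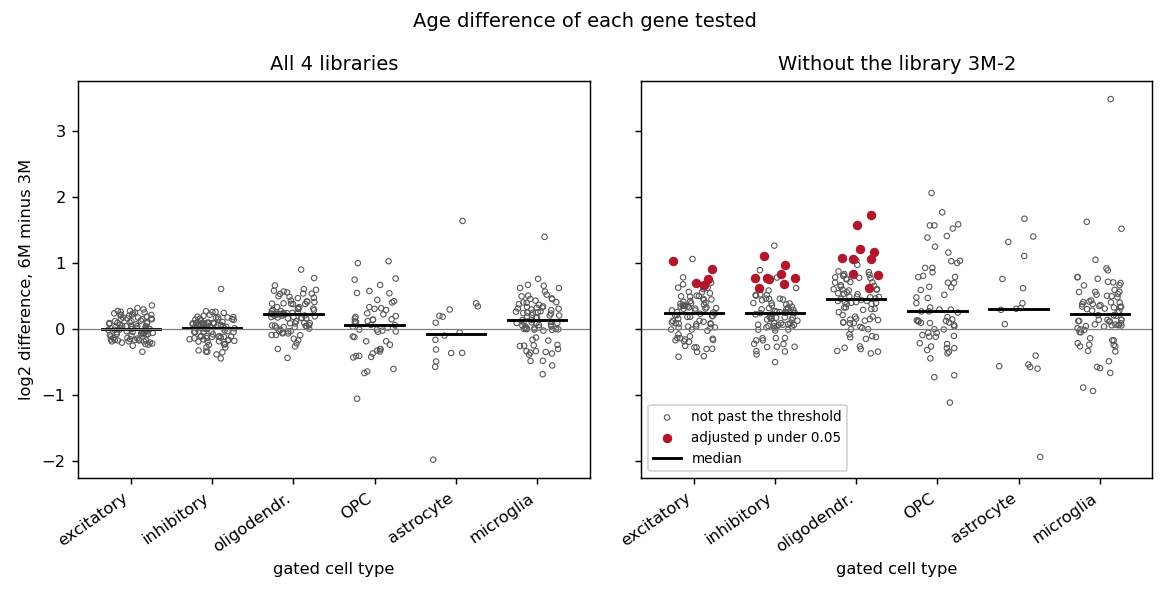
Log2 difference (6M minus 3M) of each oxidative phosphorylation gene tested in 6 gated cell types, with all 4 libraries (left) and without 3M-2 (right). Bars are medians and filled points passed an adjusted p of 0.05, which no gene did with all libraries. Without 3M-2 the medians were 0.23, 0.24 and 0.46 in excitatory neurons, inhibitory neurons and oligodendrocytes. Over all genes tested they were 0.02 in each of these types.

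The summed CPM gave the same picture. Its 6M mean minus its 3M mean was 0.175 in excitatory neurons, −98.8 in inhibitory neurons, 520.0 in oligodendrocytes, 40.7 in OPCs, −18.8 in astrocytes and 293.8 in microglia, while the 3M libraries alone lay between 461 CPM (microglia) and 1607 CPM (astrocytes) apart. With 2 libraries an age, an exact permutation test cannot go below p = 0.333. A test of whether the age difference depended on the cell type called 68 of 14161 genes (0.48%), with 0 of the 86 oxidative phosphorylation genes, of which Uqcrh and Atp5k had an unadjusted p under 0.05 (adjusted p = 0.496 and 0.512).

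In the main fit between cell types, only the lower calls in excitatory neurons and the higher calls in oligodendrocytes exceeded the share of all genes. They covered 64.0% and 48.8% of the oxidative phosphorylation genes tested, against 28.3% and 30.9% of all genes. Each type was compared with the mean of the other 5 in 1 fit of 14161 genes with library as a term, and 86 of the 93 genes could be tested. Excitatory neurons had 1 gene higher and 55 lower, where 36.1% and 28.3% of all genes tested were so called. Inhibitory neurons had 14 higher and 12 lower (33.8% and 24.1% of all genes), and oligodendrocytes 42 higher and 3 lower (30.9% and 25.5%). OPCs had 1 higher and 9 lower (20.6% and 11.7%), astrocytes 10 higher and 0 lower (13.2% and 14.8%), and microglia 7 higher and 9 lower (32.1% and 30.8%). The median log2 difference was −0.40 in excitatory neurons, 0.04 in inhibitory neurons, 0.32 in oligodendrocytes, −0.21 in OPCs, 0.38 in astrocytes and −0.06 in microglia. Over all genes tested, the medians were 0.03, 0.05, 0.05, 0.02, −0.25 and −0.02.

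These differences depend on how libraries are scaled. The fit uses TMM factors, which ran from 0.804 to 0.851 in excitatory neurons and from 1.20 to 1.25 in microglia. Scaled by total UMIs alone, the scale of the CPM values given here, excitatory neurons had 0 genes higher and 82 lower (25.5% and 44.4% of all genes, median −0.72, all genes −0.29). Microglia had 31 higher and 2 lower (44.5% and 22.6% of all genes, median 0.29, all genes 0.33). Oligodendrocytes had 20 higher and 9 lower (23.7% and 31.6% of all genes, median 0.16, all genes −0.11), so that the share of higher calls was close to that of all genes. Inhibitory neurons had 11 and 23 (30.2% and 28.3%, median −0.05, all genes −0.04), astrocytes 16 and 0 (15.2% and 10.5%, median 0.56, all genes −0.07), and OPCs 1 and 6 (22% and 10.2%, median −0.16, all genes 0.07). Against the median of all genes, the excitatory shift was downwards and the oligodendrocyte and astrocyte shifts upwards under both scalings, while in microglia the genes sat close to that median under both. The log2 differences below are on the TMM scale. The counts by complex below are to be read beside the shares of all genes given above for the main fit. By total UMIs alone, 22 of the 42 higher calls in oligodendrocytes were lost, among the genes named below those of Ndufs1, Ndufv1, Sdhc, Cox5a, Atp5g1, Atp5g3 and Atp5k. In microglia 7 of the 9 lower calls were lost, all but those of Ndufs1 and Ndufaf5. The higher calls of Sdhb and Uqcrc2 in inhibitory neurons and the lower calls of Sdhb and Cox5a in OPCs were lost as well.

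Core subunits of complex I carry the flavin and the iron-sulfur clusters that move electrons from NADH. In excitatory neurons 5 of 7 were lower and 0 higher, led by Ndufs7 (−0.69, SE 0.11, adjusted p = 6.75e-07) and Ndufs8 (−0.86, SE 0.18, adjusted p = 9.26e-05), with Ndufv1 at −0.31 and Ndufs1 at −0.23. In oligodendrocytes 4 of 7 were higher, among them Ndufs7 (0.61), Ndufv1 (0.40) and Ndufs1 (0.33). Ndufs1, the largest subunit of the complex, was also the most firmly lower gene in microglia (−0.73, SE 0.11, adjusted p = 1.17e-06). Its CPM was 57.6, 70.7, 69.2 and 61.6 in microglia, 75.1, 95, 99.5 and 85.4 in oligodendrocytes and 98.2, 82.9, 75.7 and 82.1 in inhibitory neurons. The microglial values all lay below those of both other types, and they overlapped the excitatory values of 64.5, 58.9, 55.2 and 55.3.

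Accessory subunits of complex I form the shell around the core. In excitatory neurons 19 of 29 were lower, with Ndufa7 at −0.83 (SE 0.11, adjusted p = 7.05e-08), Ndufa6 at −0.67, Ndufs5 at −0.64, Ndufb7 at −0.91 and Ndufb11 at −1.03. Ndufb11 had 3.89, 7.14, 7.02 and 6.13 CPM in excitatory neurons against 14.2, 20.1, 19.5 and 22.6 in oligodendrocytes, with no overlap. In oligodendrocytes 14 of 29 were higher, with Ndufa3 and Ndufb11 at 0.83, Ndufb7 at 0.79 and Ndufs5 at 0.62. The exception in excitatory neurons was Ndufa10, the 1 gene called higher there (0.46, SE 0.09, adjusted p = 1.88e-05), which was also higher in inhibitory neurons (0.70, SE 0.09, adjusted p = 4.41e-08) and lower in OPCs (−0.65) and microglia (−0.49). By total UMIs alone it was called neither in excitatory neurons (0.14, adjusted p = 0.181) nor in microglia (−0.15, adjusted p = 0.337). Ndufa10 had 94.4, 82.9, 76.3 and 87.3 CPM in inhibitory neurons, 75.0, 60.1, 60.1 and 64.2 in excitatory neurons and 46.6, 49.1, 43.4 and 29.7 in OPCs. Ndufs4, a subunit whose loss causes Leigh-like disease in mice, was higher in inhibitory neurons (0.29) and lower in oligodendrocytes (−0.52, SE 0.09, adjusted p = 4.96e-06). In astrocytes Ndufb10 (1.23), Ndufa6 (1.02) and Ndufa12 (0.94) were higher, the last with an adjusted p of 0.0473 that was lost in 6 of 14 alternatives, down to 0.068. Higher in microglia were Ndufa7 (0.58), Ndufa2 (0.54), Ndufab1 (0.47) and Ndufa9 (0.38).

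Assembly factors of complex I help to build the complex and are not part of it. Of the 8, 3 were higher in inhibitory neurons and 1 lower, where 33.8% and 24.1% of all genes tested were so called. In excitatory neurons 2 were lower and 0 higher (28.3% and 36.1% of all genes). The higher calls in inhibitory and the lower calls in excitatory neurons thus lay near the share of all genes. Ndufaf5, which modifies a core subunit during assembly, had the firmest difference in inhibitory neurons (1.20, SE 0.12, adjusted p = 1.09e-10). Its CPM was 34.9, 47.0, 33.3 and 41.5 there, above the 19.0, 23.2, 16.3 and 21.4 of excitatory neurons, the 11.5, 13.9, 18.2 and 18.7 of oligodendrocytes and the 14.4, 15.9, 14.8 and 16.1 of microglia in every library. In microglia it was lower (−0.83, SE 0.21, adjusted p = 0.000818). Ndufaf6 was higher in astrocytes (1.02) and inhibitory neurons (0.42) and lower in oligodendrocytes (−1.11, SE 0.15, adjusted p = 5.7e-08), where it had 11.0, 9.71, 10.8 and 15.5 CPM against 55.3, 41.5, 45.8 and 63.1 in astrocytes. Ndufaf7 was higher in inhibitory neurons (0.49), and Ndufaf2 was higher in oligodendrocytes (0.63) and lower in excitatory neurons (−0.34). Ndufaf1 passed in no type, with values from −0.37 in OPCs to 0.46 in inhibitory neurons (adjusted p = 0.599 and 0.0664).

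Complex II joins the citrate cycle to the electron chain. Sdha, its flavoprotein, was lower in excitatory neurons (−0.27, SE 0.07, adjusted p = 0.00184) and higher in inhibitory neurons (0.27, SE 0.08, adjusted p = 0.00298). It had 62.4, 70.3, 69.8 and 71.0 CPM in excitatory neurons and 109, 101, 107 and 110 in inhibitory neurons, with no overlap. Sdhb, the iron-sulfur subunit, was higher in inhibitory neurons (0.25) and lower in OPCs (−0.48), calls that were lost in 9 and 6 of 14 alternatives, and Sdhc, a membrane anchor, was lower in excitatory neurons (−0.59) and higher in oligodendrocytes (0.44). Of complex III, 5 of 8 subunits were lower in excitatory neurons, among them Uqcr11 (−0.97), Uqcr10 (−0.57), the Rieske protein Uqcrfs1 (−0.57) and Uqcrh (−0.46). Uqcrc1 and Uqcrc2, the large core proteins of complex III, were instead higher in inhibitory neurons (0.39 and 0.24), and Uqcrc1 was lower in oligodendrocytes (−0.40).

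Complex IV, the oxygen-consuming complex, had 10 of 13 tested subunits lower in excitatory neurons and 9 higher in oligodendrocytes. Cox4i1, its largest nuclear subunit, was lower in excitatory neurons (−0.44, SE 0.07, adjusted p = 1.25e-06), OPCs (−0.43) and microglia (−0.25), and higher in oligodendrocytes (0.43, SE 0.08, adjusted p = 9.57e-06) and astrocytes (0.77, SE 0.16, adjusted p = 0.000227). By total UMIs alone the microglial difference had the opposite sign (0.10). Cox4i1 had 48.9, 72.3, 67.0 and 58.6 CPM in excitatory neurons and 74.2, 120, 122 and 132 in oligodendrocytes, which did not overlap, and 124, 202, 172 and 162 in astrocytes. Cox5a and Cox7b were higher in inhibitory neurons (0.55 and 0.50) and lower in OPCs (−0.51 and −0.70), and Cox5a was also higher in oligodendrocytes (0.43). Cox5b (−0.71), Ndufa4 (−0.68), Cox8a (−0.53), Cox6b1 (−0.48), Cox6a1 (−0.46), Cox7a2 (−0.35) and Cox7c (−0.30) were lower in excitatory neurons. Cox8a (0.69) and Cox7c (0.52) were higher in astrocytes, and Cox7c (0.29) and Cox7a2l (0.45) in microglia. The astrocyte calls were lost in 3 and 6 of 14 alternatives, and the microglial calls in 3 each.

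The ATP synthase had 12 of 17 genes lower in excitatory neurons and 9 higher in oligodendrocytes. Of its 3 genes for the membrane ring, Atp5g2 was lower in excitatory neurons (−0.81, SE 0.09, adjusted p = 2.12e-09) and inhibitory neurons (−0.60, SE 0.10, adjusted p = 4.62e-06) and higher in oligodendrocytes (0.73, SE 0.10, adjusted p = 8.03e-08). It had 21.0, 24.7, 24.3 and 20.6 CPM in excitatory neurons, 27.5, 33.9, 30.7 and 25.5 in inhibitory neurons and 49.5, 71.4, 61.2 and 61.5 in oligodendrocytes, and no library of oligodendrocytes overlapped with either neuron type. Atp5g3 was lower in excitatory neurons (−0.53) and higher in oligodendrocytes (0.40), and Atp5g1 was lower in OPCs (−0.70), higher in oligodendrocytes (0.32) and not past the threshold in excitatory neurons (−0.15, adjusted p = 0.269). The oligodendrocyte call of Atp5g1 was lost in 10 of 14 alternatives, down to 0.16. Of the catalytic head, Atp5a1 was higher in inhibitory neurons (0.34) and astrocytes (0.53) and lower in excitatory neurons (−0.20) and microglia (−0.33), and Atp5b was higher in astrocytes (0.55) and lower in excitatory neurons (−0.28) and microglia (−0.38). By total UMIs alone the microglial difference was 0.018 for Atp5a1 and −0.036 for Atp5b (adjusted p = 0.893 and 0.791), and the astrocyte call of Atp5b was lost in 6 of 14 alternatives, down to 0.25. Atp5o (0.80), Atp5e (0.94) and Atp5k (0.45, lost in 8 of 14 alternatives) were higher in oligodendrocytes, and Atp5l was higher in inhibitory neurons (0.60) and lower in OPCs (−0.77).

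**Figure D3:**
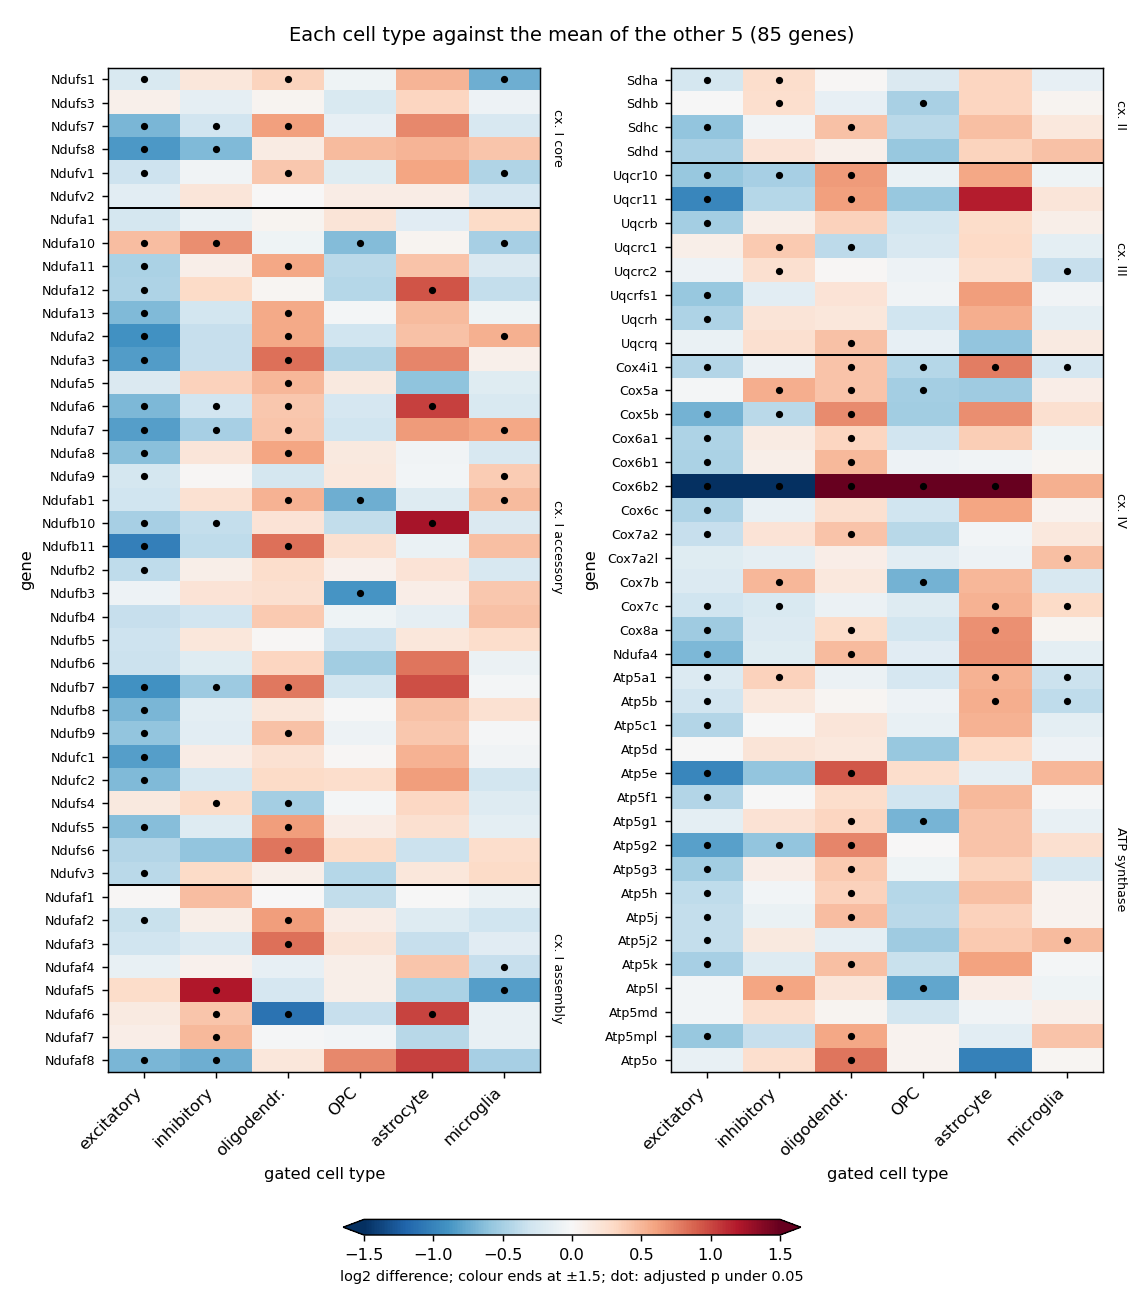
Log2 difference of 85 of the genes tested (rows, by complex) in each gated cell type against the mean of the other 5 types (columns), with colours ending at ±1.5 and a dot where the adjusted p was under 0.05. Excitatory neurons are mostly blue (54 of those drawn lower), oligodendrocytes mostly red (41 higher), and Cox6b2 exceeds the colour range in 5 of the 6 types.

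The lengths of the genes moved with these differences. Across the 86 genes, Spearman's rho between genomic span and the log2 difference was 0.51 in excitatory neurons, 0.55 in inhibitory neurons and −0.42 in oligodendrocytes, where over all 14156 genes with a span it was 0.24, 0.19 and −0.16. The genes are not independent replicates and no test was made. Among genes under 20 kb, the median was −0.45 in excitatory neurons for the 73 oxidative phosphorylation genes and −0.15 for all 5687 genes, and in oligodendrocytes it was 0.35 and 0.17.

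The interneuron classes were compared next. Pvalb interneurons had a summed level of 3234, 4142, 3556 and 3262 CPM, against 2504, 3210, 2903 and 2741 in Sst, 2340, 2914, 2695 and 2507 in Vip and 2262, 3050, 2844 and 2507 in Lamp5 interneurons. Within each library the Pvalb value was the highest of the 4 classes, at 1.26 to 1.37 times the mean of the others. Per nucleus it was 35.5, 36.2, 37.6 and 32.4 UMIs against 23.3 to 25.6 in Sst, 14.8 to 19.4 in Vip and 19.6 to 22.2 in Lamp5. Median depth per nucleus was 7961 to 10332 UMIs in Pvalb and 7030 to 10250 in Sst nuclei, and lower in Vip nuclei (4456 to 6771).

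Against the mean of the other 3 classes, 24 of 68 genes tested were higher in Pvalb interneurons and 0 were lower, where 18% and 16.2% of all 9174 genes tested were called higher and lower. The values of 65 of 68 genes lay above 0, with a median of 0.37 against 0.00 over all genes. Without the library as a term 15 genes were called, and without 6M-1 also 15. The counts over all genes in these 2 settings are not reported here. DESeq2 called 16, where it called 1329 of all 9174 genes higher, against 1653 in the main fit. Of the 68 genes tested, 37 had a CPM above the mean of the other 3 classes in all 4 libraries, against 21.5% of all genes tested. The total-UMI scaling likewise called 24.

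Complex IV led the list. Cox7b, an X-linked subunit, was higher by 1.01 (SE 0.12, adjusted p = 1.89e-08), with 89.6, 123, 101 and 73.4 CPM in Pvalb, 58.2, 78.7, 60.7 and 50.4 in Sst, 33.1, 57.9, 52.0 and 40.9 in Vip and 37.5, 46.0, 41.6 and 33.7 in Lamp5 interneurons. Within each library the Pvalb value was the highest of the 4. Cox5a was higher by 0.91 (SE 0.14, adjusted p = 3.49e-06) and had 73.7, 102, 89.1 and 63.1 CPM in Pvalb, above every value in Sst (40.5 to 62.4), Vip (33.4 to 42.6) and Lamp5 (35 to 49.3). Cox4i1 was higher by 0.75 (SE 0.11, adjusted p = 1.37e-06), with 101, 135, 119 and 102 CPM in Pvalb, above all values of the other classes (47.3 to 97.0). Cox6a1 (0.59), Cox7a2 (0.50) and Cox8a (0.37) were also called. The calls of Cox7a2 and Cox8a were each lost in 7 of 14 alternatives. Of the ATP synthase, Atp5a1 was higher by 0.66 (SE 0.11, adjusted p = 4.7e-06), with 208, 222, 173 and 212 CPM in Pvalb against 126 to 146 in Sst, and Atp5g3 (0.61), Atp5l (0.54), Atp5h (0.48) and Atp5b (0.41) followed.

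Complex I gave 11 of the 24. Among them, Ndufa8 (0.91), Ndufa9 (0.82), Ndufa12 (0.82), Ndufab1 (0.62), Ndufa6 (0.59), Ndufa10 (0.38) and Ndufs4 (0.33) are accessory subunits, Ndufs1 (0.33) is a core subunit, and Ndufaf2 (0.72) and Ndufaf4 (0.56) are assembly factors. Ndufaf2 had 66.4, 92.8, 69.8 and 64.8 CPM in Pvalb interneurons against 36.7 to 56.4 in Sst and 27 to 45 in Vip, and Lamp5 had 39.4 to 59.1, so the Pvalb values lay above all others. Uqcrc1 (0.52) and Uqcrh (0.47) of complex III were higher, and no complex II gene passed, with Sdha and Sdhb at 0.27 each (adjusted p = 0.0840 and 0.182). The calls of Ndufs1 and Uqcrh were lost in 6 and 5 of 14 alternatives. Of the 20 genes called that have a promoter entry, 5 held the NRF1 core (Cox6a1, Atp5l and Ndufaf4 printed above, and Ndufa8 and Uqcrc1), as did 4 of the 36 tested genes that were not called. The ETS core stood in 5 of 20 and 6 of 36.

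**Figure D4:**
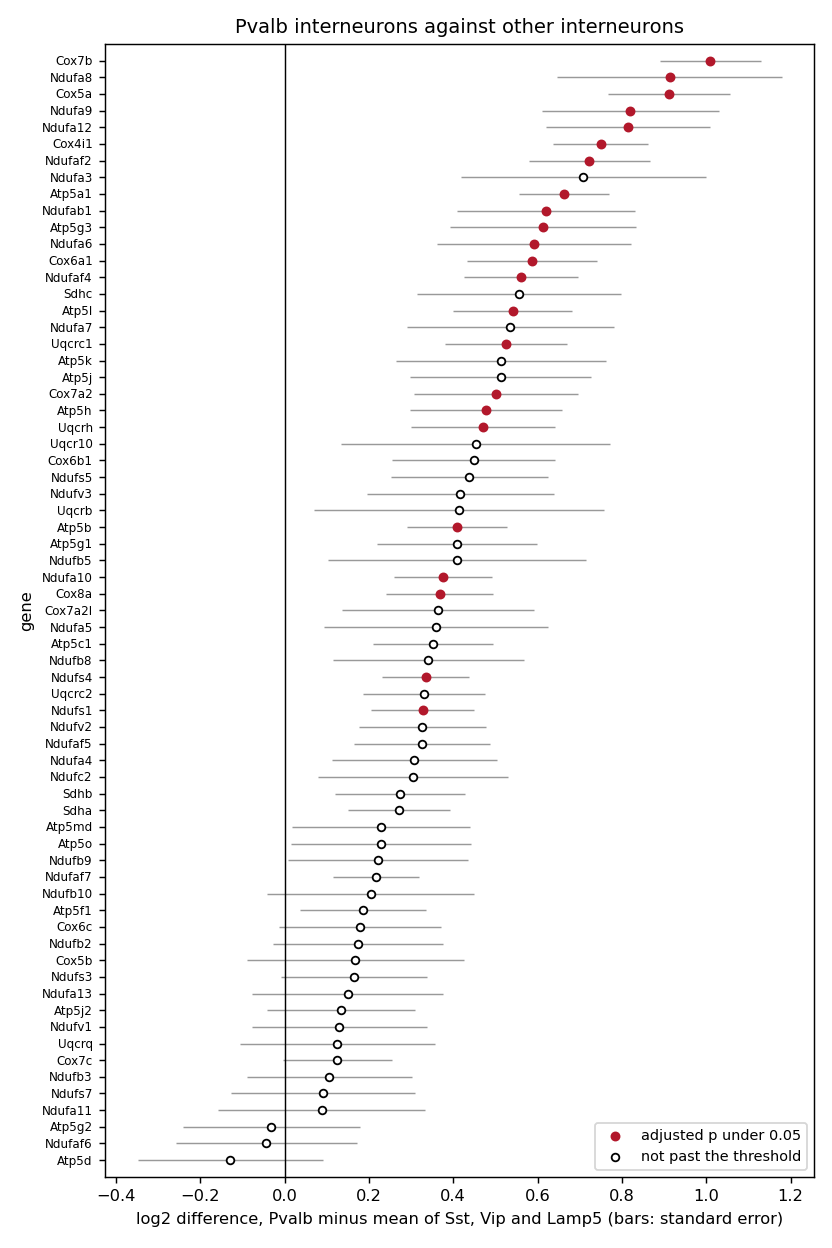
Log2 difference between Pvalb interneurons and the mean of Sst, Vip and Lamp5 interneurons for 67 of the genes tested, with standard errors as bars. The 23 filled points passed an adjusted p of 0.05, all of them above 0, and 64 of the 67 points lie right of 0.

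Some subunits of complex IV exist as alternative genes, and these had the sharpest cell-type patterns at low counts. Cox6a2, the heart and muscle form of subunit 6a, gave 4, 19, 16 and 4 UMIs in Pvalb interneurons, which is 14.8 CPM over the 4 libraries (exact 95% Poisson interval 10.7 to 19.98), against 1.87 CPM in Sst (0.935 to 3.35), 1.61 in Vip and, from 8 UMIs, 4.004 in Lamp5 interneurons. Of the UMIs of Cox6a1 and Cox6a2 together it made up 20.7% in Pvalb interneurons (43 of 208, 95% Wilson interval 15.7% to 26.7%), 4.28% in Sst (11 of 257), 10.8% in Lamp5 (8 of 74, 5.58% to 19.9%) and 1.39% in excitatory neurons (46 of 3312). These intervals cover counting error only. Cox6a2 was too low for the filter of the fits between types and between interneuron classes. By age it was tested in excitatory (0.22, SE 0.58) and inhibitory neurons (0.01, SE 0.54) and not called (adjusted p = 0.965 and 0.999). Without a filter on low counts it was higher in Pvalb interneurons (2.54, SE 0.44, adjusted p = 1.65e-07) and in inhibitory neurons against the other 5 types (2.51, SE 0.36, adjusted p = 2.12e-11).

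Cox6b2, known from testis as the form of subunit 6b, stood out in glia. It gave 15, 13, 12 and 21 UMIs in oligodendrocytes, 6, 1, 1 and 2 in astrocytes, 5, 3, 3 and 1 in OPCs and 3, 2, 3 and 0 in the far deeper sums of excitatory neurons. Of the UMIs of Cox6b1 and Cox6b2 it made up 17.0% in oligodendrocytes (61 of 359, 95% Wilson interval 13.5% to 21.2%), 19.4% in OPCs (12 of 62), 11.3% in microglia (16 of 142), 40% in astrocytes (10 of 25, 23.4% to 59.3%), 2.83% in inhibitory neurons (16 of 566) and 0.416% in excitatory neurons (8 of 1921). In the fits it was higher in oligodendrocytes (1.89, SE 0.32, adjusted p = 6.36e-06), astrocytes (3.36, SE 0.71, adjusted p = 0.000343) and OPCs (1.51, adjusted p = 0.0379) and lower in excitatory neurons (−5.41, SE 0.44, adjusted p = 4.06e-13) and inhibitory neurons (−1.88). The astrocyte value rests on 10 UMIs, of which 6 came from 3M-1. In microglia Cox6b2 was not called (0.54, adjusted p = 0.298), and its OPC call was lost in 4 of 14 alternatives.

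Cox7b2, the alternative of Cox7b, was seen in neurons and at few UMIs elsewhere. It gave 357 UMIs in excitatory neurons and 107 in inhibitory neurons, which is 7.52% and 7.31% of the UMIs of both genes, against 1.46% in oligodendrocytes (7 of 478) and 0.952% in microglia (2 of 210). From few UMIs it was 6.85% in OPCs (5 of 73) and 4.76% in astrocytes (2 of 42). Without a filter on low counts it was higher in excitatory neurons (1.27, SE 0.32, adjusted p = 0.000196) and inhibitory neurons (1.73, SE 0.33, adjusted p = 1.25e-06). The medians over all 26834 genes of these unfiltered fits were 0.50 and 0.24, and 7926 and 6368 genes were called higher. Pooled, Cox7b2 had 3.19 CPM in excitatory neurons, within the interval of OPCs (2.61 CPM, exact 95% Poisson interval 0.846 to 6.08). Of the remaining alternative forms, Cox7a1 gave 50 UMIs over the 6 types, Cox4i2 32, Ndufa4l2 10 and Cox8b 6. Cox8c gave 0, which allows up to 0.0268 CPM in excitatory neurons (3 counts of the total). In the 36 mural nuclei, which entered no test, Ndufa4l2 gave 3, 2, 1 and 2 UMIs and Cox4i2 0, 0, 6 and 0.

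**Figure D5:**
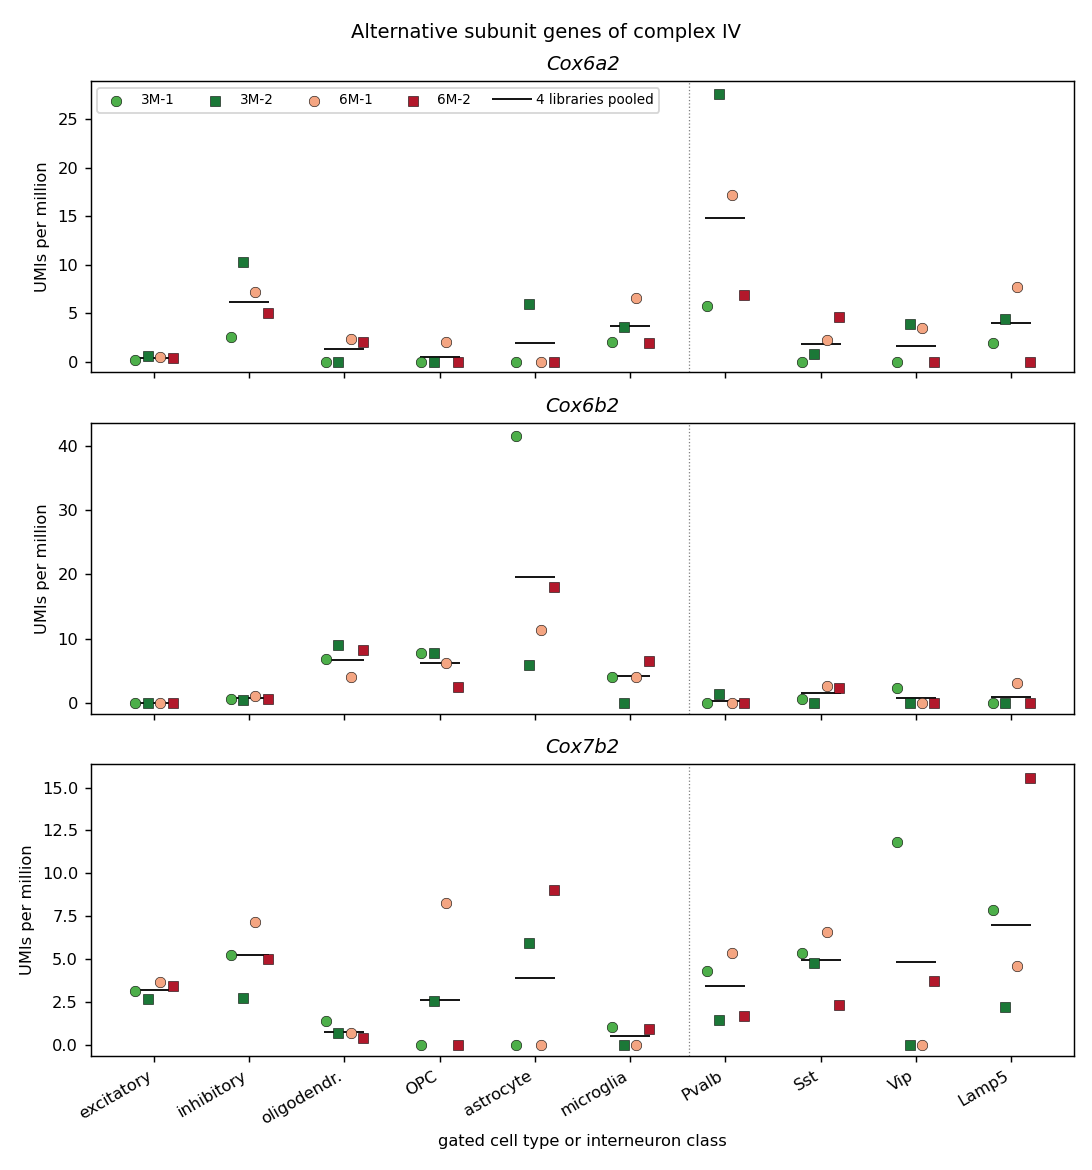
Levels of 3 alternative subunit genes of complex IV as CPM in 6 gated cell types (left of the dotted line) and 4 interneuron classes (right), mural nuclei not drawn, with 1 point a library and a bar for the 4 libraries pooled. Among the groups drawn, Cox6a2 is highest in Pvalb interneurons (14.8 pooled) and Cox6b2 in astrocytes (19.6, from 10 UMIs), and Cox7b2 is lowest in microglia (0.525) and oligodendrocytes (0.768), with 3.91 in astrocytes from 2 UMIs and 3.19 in excitatory neurons from 357.

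Other genes of the pathway were followed as fixed lists. In Pvalb interneurons, 18% of all 9174 genes tested were higher and 16.2% lower. Of 12 citrate cycle genes tested, 8 were higher there and 0 lower (median 0.48), with Idh3a, a subunit of isocitrate dehydrogenase, at 1.00 (adjusted p = 8.86e-05). Of 18 carriers and assembly factors 7 were higher and 0 lower, with Nubpl, which delivers iron-sulfur clusters to complex I, at 1.08 (adjusted p = 0.00488). Of 7 regulators 3 were higher and 0 lower, led by Ppargc1a, the coactivator of mitochondrial biogenesis, at 2.17 (adjusted p = 5.64e-17). Cytoplasmic neuronal mRNAs went the other way in Pvalb interneurons, with 0 of 8 higher and 4 lower. Of 13 mitochondrially encoded mRNAs, 1 could be tested in that comparison, at −0.64 and not called. Mitochondrially encoded RNA stood at 27.9 to 37.6 CPM in Pvalb and 38.8 to 55.6 in Sst interneurons. It had 33.1 to 52.0 CPM in Vip and 37.2 to 49.3 in Lamp5 interneurons. In inhibitory neurons 8 of 13 citrate cycle genes were higher and 1 lower, with Idh3a at 0.85 and Suclg2 at −1.96, whereas oligodendrocytes had 0 higher and 5 lower (Suclg2 at −3.28) and microglia 2 higher and 5 lower (Suclg2 at 3.34). Excitatory neurons had 3 higher and 1 lower (Ogdh at 0.38, Suclg2 at −1.13), OPCs 1 and 4, and astrocytes 4 and 0. The shares over all genes in each type are given with the carriers below.

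The carriers and assembly factors did not follow the subunits closely. Of 32 tested, excitatory neurons had 4 higher and 9 lower, led by Sdhaf2 (0.59) and Sdhaf1 (−0.996). Inhibitory neurons had 8 and 5 (Uqcc1 0.55, Sdhaf1 −1.08), oligodendrocytes 10 and 3 (Sdhaf1 0.97, Cox10 −1.14) and microglia 9 and 5 (Sdhaf1 1.17, Cox10 −0.64). OPCs had 1 and 2 (Sdhaf3 0.82, Cox19 −0.59) and astrocytes 2 and 3 (Cox10 1.58, Sdhaf2 −1.91). Over all genes tested, 36.1% were higher and 28.3% lower in excitatory neurons, and 33.8% and 24.1% in inhibitory neurons. The shares were 30.9% and 25.5% in oligodendrocytes, 32.1% and 30.8% in microglia, 20.6% and 11.7% in OPCs and 13.2% and 14.8% in astrocytes. The lower calls in excitatory neurons and the higher calls in oligodendrocytes thus lay near the share of all genes. Among 10 regulators, Ppargc1b was higher in excitatory (2.28) and inhibitory neurons (2.50) and Nrf1, the factor whose site was searched in the promoters, was lower in both (−0.67 and −0.86). Ppargc1a was lower in oligodendrocytes (−2.96) and microglia (−2.85) and higher in astrocytes (2.30), while Ppargc1b was lower in astrocytes (−2.54, adjusted p = 0.00248). Yy1 was higher in microglia (0.92). The mitochondrially encoded mRNAs, of which 5 of 13 were tested, were higher in astrocytes (3 of 5, mt-Nd1 at 3.06), and 2 and 1 were lower in inhibitory neurons (mt-Atp6 at −1.15) and oligodendrocytes (mt-Co2 at −1.001). None of the listed genes was called between 3M and 6M in any of the 6 types.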

How the data were processed

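Nuclei of 4 libraries (2 mice aged 3 months and 2 aged 6 months, batch 1 and 2 at each age) were sequenced with the 10x Genomics 3' kit. The deposited counts are raw UMIs, one matrix a library, made for the authors with Cell Ranger (7.0.0 per the file headers, with mm10 and Seurat named in the submitters' processing notes). The authors' limits of 7000 genes and 1% mitochondrial UMIs were applied. A nucleus was assigned to a type with UMIs of at least 3 of its marker genes, a lead of 2 over every other list and at most 1 marker of another list (interneuron classes: 2 markers, lead of 1). The last limit was set after neuronal RNA had been seen in glial sums. Where OPC markers led, Nxph1 and Adarb2 of the inhibitory list were not counted against the nucleus, because OPCs also express them. Raw counts were summed per library and type, normalized by TMM and tested with edgeR 4.0.16 (quasi-likelihood test, filterByExpr, Benjamini-Hochberg over all genes tested, threshold 0.05, R 4.3.3), as 6M against 3M for each type, and as a type against the mean of the others with library as a term, for groups of at least 20 nuclei. Nuclei were not used as replicates, and with 2 mice an age the p-values rest on few degrees of freedom. Of the genes, 29 overlap a gene on the other strand and 1 (Ndufa13, with Yjefn3) a gene on the same strand, and whether the counting used strand is not given in the sources used here, so shared reads may not be told apart. Alternatives were RLE scaling, DESeq2 1.42.0, no filter, all deposited nuclei, at most 0.1% mitochondrial UMIs, Scrublet doublets (scanpy 1.11.5) left out, a stricter gate (4 markers, lead of 3), each library left out, and the pairing term. Scaling by total UMIs and a gate with no limit on other markers were added after seeing the data. Batch numbers in the labels pair the libraries across ages, although the deviations of same-numbered libraries correlated only between −0.112 and 0.0402 by type. Named by rule are up to 10 genes in each direction per test by adjusted p, 30 preset genes, and of each other list the gene with the largest difference. Further genes called in a complex were named after their values were seen. The genes and lists were chosen with earlier results of these data known. Single values of some genes that entered the counts are not reported here.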

Additional observations from a re-analysis of the deposited data

Results flagged for a closer look

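The summed CPM of the 93 genes in excitatory neurons minus the mean of the other 5 types was −889.8 in 3M-1, against −1316 in 3M-2 and −1256 and −1244 in the 6M libraries. The value of 3M-1 lay farther from the rest than Dixon's limit for 4 values allows, by a narrow margin. Chance passes this limit in about 1 group in 20, and the number of groups looked at is not given here. The difference was negative in all 4 libraries.

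A signal in nuclei outside the comparisons was seen in the 36 mural nuclei, which hold 52268 UMIs. Ndufa4l2, a paralog of Ndufa4 known from pericytes, gave 8 UMIs there, or 153 CPM (exact 95% Poisson interval 66.1 to 302), spread over all 4 libraries. Cox4i2, the alternative form of Cox4i1 known from lung and vessels, gave 6 UMIs, or 115 CPM (42.1 to 250), all from 6M-1. A count of 0 would allow 57.4 CPM in this sum. In excitatory neurons Cox4i2 stood at 0.179 CPM. Cox6b2 gave 4 UMIs in mural nuclei. The number of mural nuclei was 5 and 6 in the 3M and 15 and 10 in the 6M libraries, and no test was made.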

How the results depend on the processing

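None of the oxidative phosphorylation genes was called by age in any of the 6 types under RLE scaling, DESeq2 or no filter. Nor was any of them called under the other nucleus and gate settings or the replicate block. Of all genes, DESeq2 called 30 of 18236 in excitatory neurons and 33 of 11973 in oligodendrocytes. No filter called 134 of 21038 in oligodendrocytes and 133 of 20063 in microglia. Both called fewer in the other types. Leaving out 1 library gave 0 to 5 called genes in excitatory neurons, 0 to 9 in inhibitory neurons and 0 to 10 in oligodendrocytes, the highest without 3M-2. Without the library term (no replicate block), the type fits called 17 genes in inhibitory neurons, 6 in OPCs, 9 in microglia and 15 in Pvalb interneurons. Leaving out 1 library gave 4 to 9 in OPCs, 3 to 11 in astrocytes and 15 to 23 in Pvalb interneurons. In astrocytes DESeq2 called 18 (3827 of all 14161 genes), no filter 6 (4340 of 26834) and the stricter gate 3. The counts over all genes without the library term, without 1 library and with the stricter gate are not reported here. Whether the oxidative phosphorylation genes lost more calls than other genes was not tested. Scaling by total UMIs called 29 in oligodendrocytes, 16 in astrocytes and 33 in microglia. With nuclei of mixed markers kept, the summed CPM differed between ages by 29.7 in microglia, against 293.8 in the main gate. From the other 5 types it differed by −900.2 in excitatory neurons, 137.3 in inhibitory neurons, −248.9 in OPCs and 110.1 in microglia. In the main gate these differences were −1176, −62.7, −415.3 and 457.4, so the inhibitory one changed sign. In microglia, signs turned for Ndufab1 (−0.030, mixed markers kept) and, by total UMIs, for Atp5a1 (0.018), Cox4i1 (0.10) and Ndufaf4 (0.0074). Of 130 single-gene differences, 56 kept their side of the threshold in all 14 alternatives and 4 turned sign in any. The cause was not tested. Astrocytes (30 to 63 nuclei a library) and OPCs limit what could be called.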
